A study of Sus scrofa with 12 samples.

Results

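The 4 loin libraries of Polish Large White pigs were compared with the 8 libraries of the 2 other breeds of the study, Hampshire and Pietrain, for the mRNA targets and the cuts that each library lists. The 4 were taken by their titles and breed labels, 4 of 12 libraries in all. Each library is a PARE library, a sequencing of the 5′ ends of cleaved mRNA fragments. Its table comes from PAREsnip, a program that pairs such ends with a small RNA that could have guided the cut. The Polish Large White group held 2 pigs titled high MM and 2 titled low MM. The other breeds held 4 Hampshire pigs (2 high MM, 2 low MM) and 4 Pietrain pigs (2 high MM, 2 low MM). The labels do not say what MM stands for. The series title speaks of muscle mass, and the shear force label reads heavy in high MM and light in low MM pigs. All 12 animals were females kept alike at 1 test station, sampled at day 180 and slaughtered at 100 ± 2 kg. Breed is the labelled factor between the groups compared here, and no treatment is given. The labels name no litter or preparation batch, so the p-values below measure the spread between these animals' libraries, whatever its source. For Pietrain the MM group in the sample titles is the reverse of that in the table names. Groups follow the titles, and the comparison of breeds does not use MM.

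MicroRNAs are short RNAs that guide Argonaute proteins to mRNAs. With near-perfect pairing Argonaute can cut the target near the middle of the paired stretch. The downstream piece keeps a free 5′ phosphate, the end that PARE captures. In animals most pairing is imperfect and acts through translation and decay of the tail instead, so a listed end marks a fragment that could fit a guided cut, and other breakage of mRNA can leave the same end. Loin is a pale, mostly fast-fibre muscle in pigs, and Polish Large White is a maternal white breed, against the meat breeds Hampshire and Pietrain.

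In Polish Large White 543 target genes were listed in at least 1 table, of 1416 in the whole series. Of these, 195 were also listed in another breed and 348 were not. Almost all of the 348 rested on a single animal: 334 were in exactly 1 Polish Large White table and 14 were in 2. Hampshire listed 597 targets and Pietrain listed 596, of which 428 and 389 were in that breed alone. In bulk tissue, fewer cells of a type and less RNA per cell cannot be told apart. The 4 Polish Large White tables listed 99 and 134 targets in the high MM pigs and 213 and 168 in the low MM pigs. The other 8 listed 99 to 301, with a median of 157.5. The number was 153.5 ± 48.7 in Polish Large White and 177 ± 75.7 in the other breeds (SD, n = 4 and 8; exact permutation test over all 495 choices of 4 of 12 libraries, two-sided, p = 0.590, adjusted p = 0.759 over 6 library measures).

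**Figure D1:**
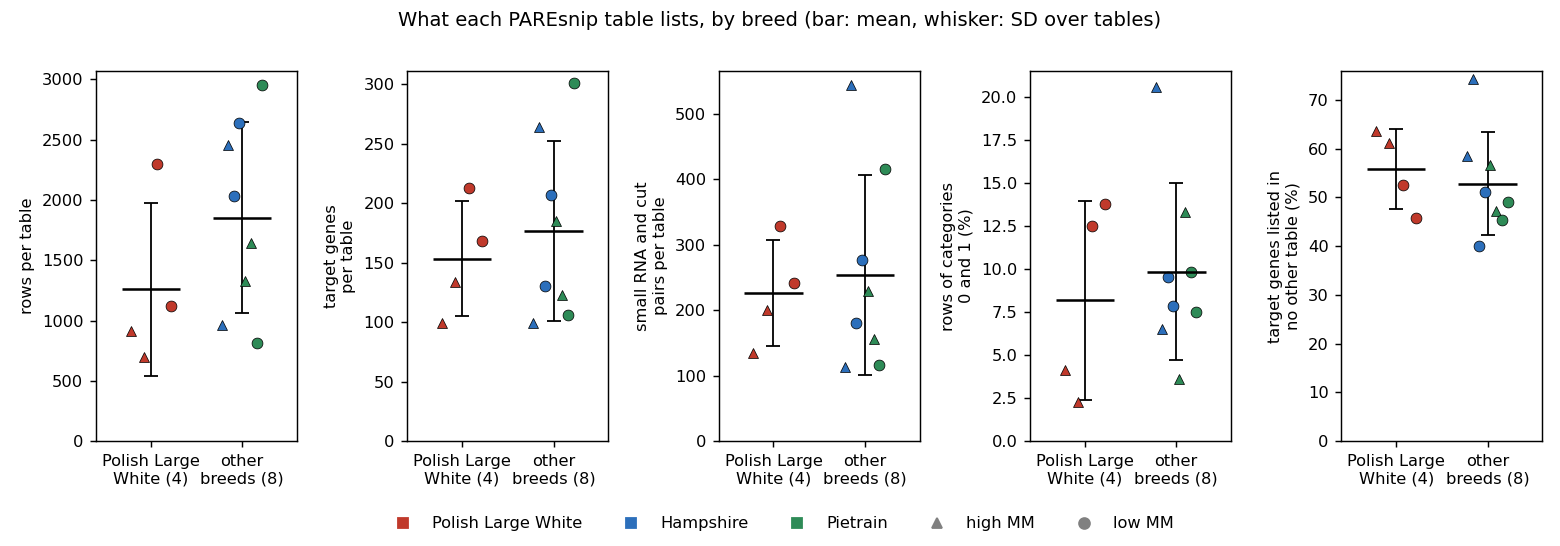
Rows, target genes, pairs of a small RNA and a cut, the percent of rows in categories 0 and 1, and the percent of targets listed in no other table, for 4 Polish Large White tables (left in each panel) and 8 tables of other breeds. Points are tables, bars are means and whiskers are SDs. The groups overlap in all 5 panels, and both high MM Polish Large White tables lie under both low MM ones in the first 4.

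Rows averaged 1258 ± 713 in Polish Large White and 1853 ± 794 in the other breeds (n = 4 and 8; exact permutation p = 0.230). Pairs of a small RNA and a cut averaged 226 ± 80.7 in Polish Large White and 254 ± 153 in the other breeds (exact permutation p = 0.760). PAREsnip sorts each end into categories 0 to 4, from the single highest peak of a transcript down to an end read once. Categories 0 and 1 made up 4.15% (95% Wilson interval 3.04 to 5.64) and 2.29% (1.41 to 3.69) of rows in the Polish Large White high MM tables. They made up 12.5% (11.2 to 13.9) and 13.8% (11.9 to 15.9) in the low MM tables. The 8 other tables ran from 3.61% to 20.6%. The means were 8.17% ± 5.79 in Polish Large White and 9.85% ± 5.16 in the other breeds (exact permutation p = 0.622). These intervals cover counting error only. The tables give no read totals, so sequencing depth is unknown.

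Targets that no other table of the series lists made up 55.8% ± 8.17 of a Polish Large White table and 52.8% ± 10.5 of a table of the other breeds (exact permutation p = 0.632). Within Polish Large White, pairs of tables shared 9 to 26 targets. The Jaccard index, shared targets over all targets of a pair, averaged 0.0494 over the 6 Polish Large White pairs and 0.0652 over the 32 pairs of a Polish Large White and another table. The difference of -0.0159 did not pass (exact permutation p = 0.127, adjusted p = 0.691). Polish Large White libraries thus shared numerically fewer targets with each other than with animals of the other breeds.

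Exactly 4 targets were listed in all 4 Polish Large White tables: CA3, ND5, TPM1 and PPP1R2. None of them was particular to the breed by listing: 3 were in all 12 tables, and ND5 was missing from 1 Hampshire table. CA3 is carbonic anhydrase 3, an abundant cytosolic enzyme of muscle. ND5 is a mitochondrially encoded subunit of respiratory complex I. TPM1 is an alpha-tropomyosin of the thin filament, and PPP1R2 is an inhibitor of protein phosphatase 1. A further 6 targets were in 3 Polish Large White tables. These were FKBP5, a co-chaperone of steroid receptors, COX3 of complex IV, CYTB of complex III, ATP2A1, the calcium pump of fast fibres, ENO3, the muscle enolase, and MYOM2, a protein of the M band. MYOM2 was in 1 other table and the other 5 genes in 5 to 7.

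**Figure D2:**
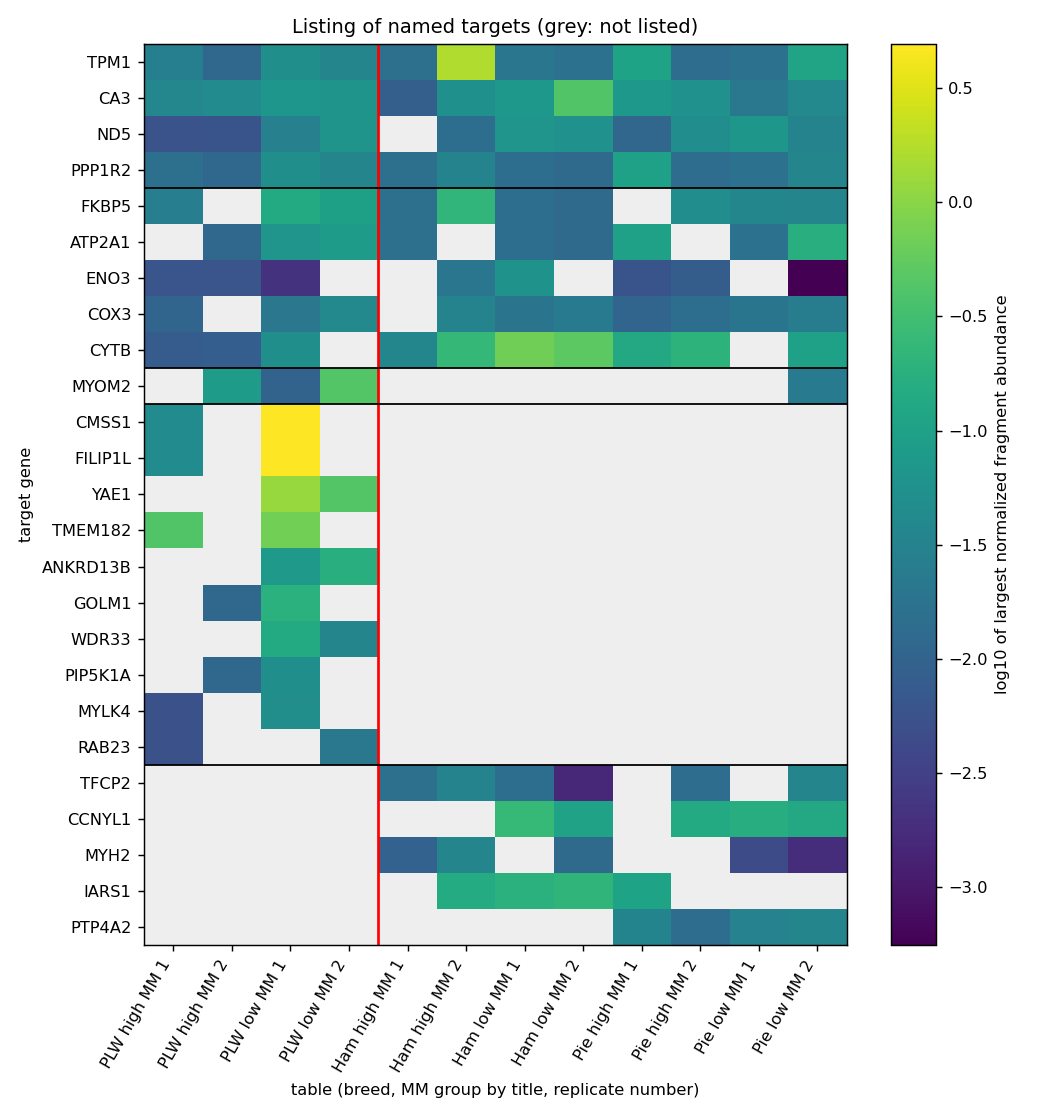
Named targets (rows) by table (columns), with the 4 Polish Large White tables left of the red line and the 8 others right of it. Colour is the log10 of the largest normalized fragment abundance of the gene in the table, and grey means that the table does not name the gene. The top block holds the 4 targets of all Polish Large White tables, then those in 3 with many or few others, those in 2 with no other, and those in none with at least 4 others.

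Tested one by one, 307 targets were listed in 2 to 10 tables. None was called at an adjusted p of 0.05 or less (0.00% of those tested; exact permutation test, Benjamini-Hochberg) and none had an unadjusted p under 0.05 (0.00%). The smallest p was 0.0606, and 139 of the 307 were listed in a smaller share of Polish Large White tables, 132 in a larger share. The design limits this test. With 4 against 8 the smallest p is 0.00202, at least 13 completely split targets would be needed for a call, and the 187 targets in just 2 tables cannot go below 0.0909. The members below are therefore a description of what these 4 pigs' tables hold.

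CYTB was lower in amount in Polish Large White, and its listing was not called. It encodes cytochrome b, the catalytic core of complex III. Its fragments were paired with miR-206, a muscle-specific miRNA, at position 16421 of the mitochondrial sequence. Positions here are the listed start plus the cleavage position, on a genome build that the sources do not name. The largest normalized abundance of CYTB was 0.00779 and 0.00838 in the 2 Polish Large White high MM tables and 0.0517 in low MM replicate 1. It was not listed in low MM replicate 2. In the 7 tables of the other breeds that list it, CYTB ran from 0.0361 through a median of 0.197 to 0.684. Both high MM Polish Large White tables lay below all 7, and the low MM one lay above 1 of the 7. The fragment abundances behind these values were 1, 1 and 9 in Polish Large White against 4 to 48 in the other breeds. The rows that hold them were of category 4, 4 and 2 in Polish Large White and of category 2 in all 7 others.

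CYTB fragments were 12.4-fold lower in Polish Large White, a log2 difference of -3.64 ± 0.94 (SE, n = 3 and 7; limma, adjusted p = 0.00856 over 7 recurrent targets). It was the only one of the 7 recurrent targets called (14.3%). An exact permutation test over the 10 tables that list CYTB gave p = 0.0167, or 0.117 adjusted over the 7 targets, where the smallest possible p is 0.00833. With either high MM Polish Large White table left out the limma call was lost (log2 -3.16 and adjusted p = 0.0937 without replicate 1, log2 -3.22 and adjusted p = 0.0769 without replicate 2). Without low MM replicate 1 the log2 difference was -4.53 (limma adjusted p = 0.00281). It was also lost on unscaled fragment abundance (log2 -3.71, adjusted p = 0.0767). CYTB was lower in all 27 alternatives and called in 22. Several of these leave every CYTB value as it was (log2 -3.64), so they repeat the main fit and are no separate support. They leave out miR-4331-5p or either table without CYTB, or keep the shallower normalization class, at most 70 matching positions or genes in at least 8 tables. The values are conditional on listing. All these largest CYTB values come from rows of the shallower of 2 normalization classes, whose factors were 0.247 to 0.360 in the Polish Large White tables and 0.237 to 0.557 in the other breeds. The 2 tables without CYTB, Polish Large White low MM replicate 2 and Pietrain low MM replicate 1, are those that hold no row of this class. Whether depth plays a part in the difference was not tested.

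A second cut in CYTB, at position 16219 and paired with miR-1343, was listed in no Polish Large White table. It was in 5 tables of the other breeds, all 4 of Hampshire and 1 of Pietrain, at 0.00625 to 0.0591 (median 0.0385). The listing gave p = 0.0808 by exact permutation, with no call.

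**Figure D3:**
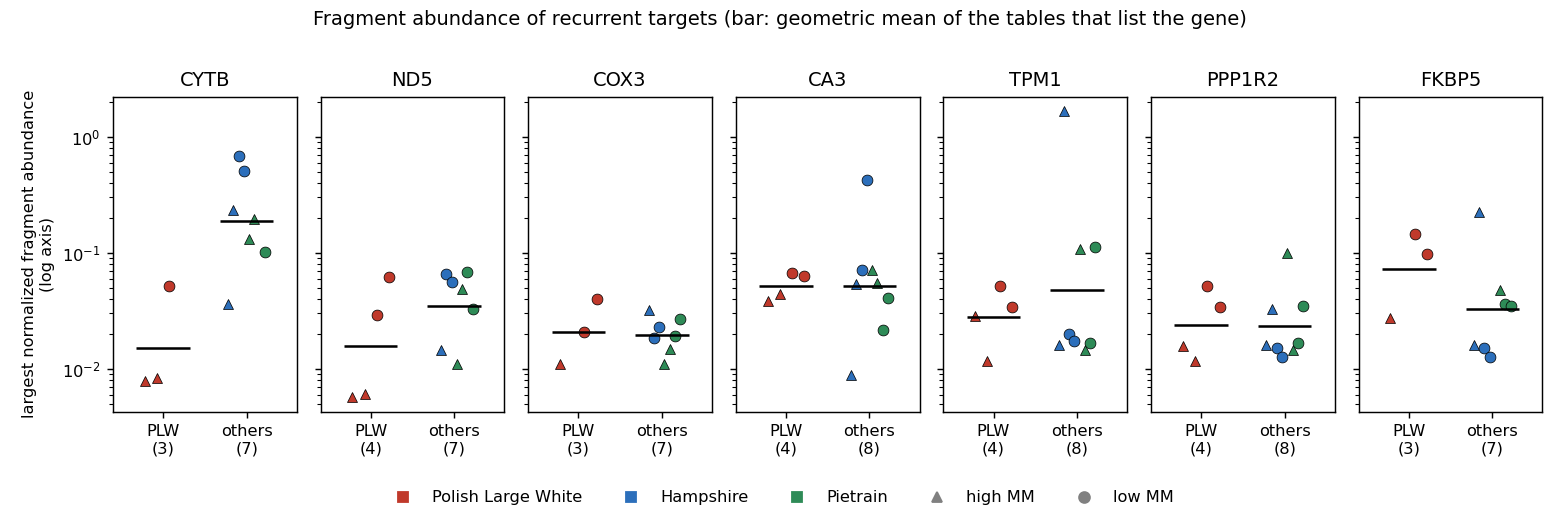
Largest normalized fragment abundance (log axis) of the 7 targets listed in at least 10 tables and at least 3 Polish Large White tables, in Polish Large White (left) and the other breeds (right) of each panel, with the number of tables that list the gene. Bars are geometric means. CYTB separates most, with 2 of 3 Polish Large White points below all others. The Polish Large White points of CA3 and FKBP5 lie within the range of the other breeds. In COX3, 1 lies above that range and 1 just below it. In ND5, 2 of 4 lie below it, and in TPM1 and PPP1R2, 1 each lies below it.

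The other 6 recurrent targets were not called. ND5 stood at 0.00566 and 0.00601 in the Polish Large White high MM tables and 0.0293 and 0.0620 in the low MM tables, against 0.0111 to 0.0687 (median 0.0489) in 7 others. Its log2 difference was -1.15 ± 0.81 (SE; limma adjusted p = 0.523), and both high MM tables lay below all others. Those 2 high MM values came from position 14725 and all the other ND5 values from position 14460. The ND5 difference thus mixes 2 sites, which are given one by one below. CA3 stood at 0.0381, 0.0441, 0.0672 and 0.0626 in the same order, against 0.00884 to 0.425 (median 0.0544), with log2 0.00 ± 0.80. COX3 was at log2 0.08 ± 0.70 and PPP1R2 at 0.04 ± 0.69, and the sign of all 3 changed under other settings. FKBP5 was at log2 1.15 ± 0.91 (adjusted p = 0.523) and TPM1 at -0.78 ± 1.07 (adjusted p = 0.825). TPM1 stood at 0.0285 and 0.0117 in the Polish Large White high MM tables and 0.0518 and 0.0344 in the low MM tables, against 0.0146 to 1.67 (median 0.0186) in the others, so the groups overlapped. The largest TPM1 value of Polish Large White high MM replicate 1 lay at another listed position, 115424104, and not at the TPM1 cut described below. Those of both Hampshire low MM tables and Pietrain low MM replicate 2 also lay elsewhere. So did the highest CA3 value, 0.425 in Hampshire low MM replicate 2 (position 54930600), and the PPP1R2 value of Pietrain high MM replicate 1 (position 132515022), both with unnamed small RNAs. Position 54930600 is far from the CA3 cuts at 51227536 and 51227874, and 115424104 is far from the TPM1 cut at 108993852. Both values were kept under the gene that their rows name, in the ranges and log2 differences above. These SEs leave wide intervals, so the missing calls do not show equal levels.

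The 2 ND5 sites divided the Polish Large White pigs. The let-7 site at position 14460, paired with let-7a and its family, was in both low MM tables, at 0.0293 and 0.0620, and in neither high MM table. It was in 7 of the 8 others, at 0.0111 to 0.0687. The miR-155-5p site at position 14725 was in both high MM tables, at 0.00566 and 0.00601, and in low MM replicate 1 at 0.00811. It was in 4 of the others, at 0.00681 to 0.0150. In the high MM tables each of those ends had a fragment abundance of 1. The listing of neither site passed the test between breeds (exact permutation p = 0.236 for let-7a and 0.576 for miR-155-5p).

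COX3 was listed in 3 Polish Large White tables and 7 others, always with miR-133a-3p, a muscle miRNA, but at neighbouring bases. Polish Large White held 112 rows at position 10259 and 1 row at 10260. The other breeds held 56 rows at 10259 and 739 at 10260. Position 10259 was in 3 Polish Large White tables, with 52, 47 and 11 windows in high MM replicate 1, low MM replicate 1 and low MM replicate 2. It was in 2 others, Hampshire high MM replicate 2 with 52 windows and Pietrain low MM replicate 2 with 1. Position 10260 was in 1 Polish Large White table and 6 others. The exact permutation p was 0.222 for each position, so neither passed the test. Counting by exact position divides the pair of COX3 and miR-133a-3p into 2 interactions. The normalized abundance at the lower base, 0.0110 to 0.0401 in Polish Large White, overlapped that at the upper base in the other breeds, 0.0110 to 0.0267.

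**Figure D4:**
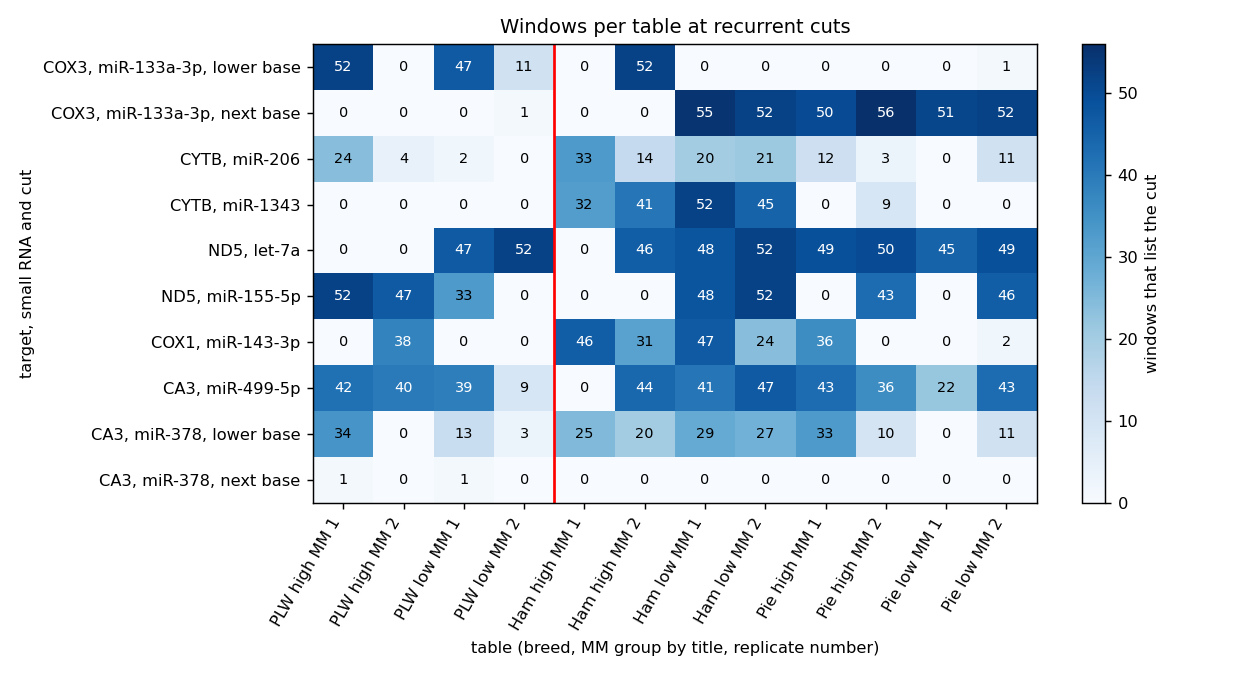
Number of overlapping windows that list each recurrent cut, per table, with the 4 Polish Large White tables left of the red line. The COX3 windows of Polish Large White lie almost all at 10259 and those of the other breeds mostly at 10260, and the miR-1343 cut of CYTB has no window in Polish Large White.

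In the literal unit of a named miRNA with its start and cleavage position, 3956 windows were listed and 1286 were in 2 to 10 tables. None was called (0.00%), and 3 had an unadjusted p under 0.05 (0.233%; exact permutation, smallest adjusted p = 0.863). One was a let-7f-5p window of ND5 at start 14421, in 0 of 4 Polish Large White tables and 7 of 8 others (exact permutation p = 0.0101). The other 2 were in 3 Polish Large White tables and no other (exact permutation p = 0.0182 each): a miR-133a-3p window of COX3 at start 10208 and a miR-4331-5p window of TPM1 at start 108993810 on chromosome 1. No Polish Large White table held 135 windows that at least 4 others list. Of these 135, 121 lay on mitochondrial genes: 53 in COX3, 31 in CYTB, 29 in ND5 and 8 in COX1. That is 89.6%, beside 80.6% of the 468 windows that at least 4 others list, whether or not Polish Large White lists them. All 53 COX3 windows lay at position 10260, next to position 10259, where 3 Polish Large White tables list the same miRNA and gene. Overlapping windows of 1 cut are not independent, so cuts were counted once in what follows. The windows of Polish Large White high MM replicate 2 span 20 bases and those in the other libraries span 10 bases, which changes what the window unit counts there.

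Counted by cut, 1092 interactions of named miRNAs were listed, and 201 in 2 to 10 tables were tested. None was called (0.00%) and none had an unadjusted p under 0.05 (0.00%; smallest p = 0.0667, exact permutation). All 4 Polish Large White tables listed 3 of them: miR-499-5p with CA3 at position 51227874 on chromosome 4, and miR-4331-5p with TPM1 and with PPP1R2. miR-499-5p is encoded within a slow myosin gene. Its CA3 cut stood at 0.0198 and 0.0441 in the Polish Large White high MM tables and 0.0672 and 0.0429 in the low MM tables, against 0.00263 to 0.0541 (median 0.0212) in 7 others. In low MM replicate 1 the end was of category 0, with a fragment abundance of 92. All 4 Polish Large White values lay within or above the range of the others. A second CA3 cut, with miR-378 at position 51227536, was in 3 Polish Large White tables at 0.0215 to 0.0626 and in 7 others at 0.00884 to 0.0944. Its neighbour at 51227537 was in 2 Polish Large White tables and no other, in 1 window each.

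The miR-4331-5p interactions with TPM1 and PPP1R2 were in all 12 tables and carried nearly equal values. At the TPM1 and PPP1R2 cuts the largest normalized abundance was the same, within 0.1%, in 10 of 12 tables, all 4 of Polish Large White among them: 0.0157 and 0.0117 in the high MM tables and 0.0518 and 0.0344 in the low MM tables. Fragment abundance over weighted abundance, which counts the positions a fragment was shared among, was 1197 to 1850 at the PPP1R2 cut in Polish Large White, so 1 fragment was listed at many places. miR-4331-5p took 8.46% to 34.8% of the interactions of a Polish Large White table, against 7.73% to 52.6% (median 28.2%) in the others, and was paired with 144 target genes in Polish Large White. FKBP5 was listed with the same miRNA, at 0.0273 in high MM replicate 1 and 0.145 and 0.0973 in the low MM tables, against 0.0127 to 0.224 in 7 others.

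Among targets more frequent in Polish Large White, MYOM2 was in 3 of 4 tables and 1 of 8 others (exact permutation p = 0.0667). It stood at 0.0848 in high MM replicate 2, 0.0101 in low MM replicate 1 and 0.429 in low MM replicate 2, against 0.0227 in Pietrain low MM replicate 2. The small RNA differed among these tables: an unnamed one, miR-23a, miR-4331-5p, and miR-23a again in the Pietrain table. MYOM2 thus recurred as a gene, with different small RNAs in the 3 Polish Large White pigs.

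The 14 targets in 2 Polish Large White tables and no other (exact permutation p = 0.0909 each) joined 1 high and 1 low MM pig for several. Such targets were not more numerous than in the other breeds: 16 were in 2 Hampshire tables and no other, and 27 in 2 Pietrain tables and no other. CMSS1 and FILIP1L were listed on opposite strands with equal values in the same tables, so the 2 genes cannot be told apart. They stood at 4.94 in low MM replicate 1 and 0.0441 in high MM replicate 1. Both were of category 1, but the small RNA was an unnamed one in the first and miR-450a in the second. TMEM182, a transmembrane protein of muscle, stood at 0.413 in high MM replicate 1 and 0.718 in low MM replicate 1. MYLK4, of the myosin light chain kinase family, stood at 0.00536 and 0.0494 in the same 2 tables. RAB23, a small GTPase that restrains hedgehog signalling, stood at 0.00536 in high MM replicate 1 and 0.0209 in low MM replicate 2. The equal high MM values of MYLK4 and RAB23 came from miR-432-5p and a fragment shared among 1309 positions. GOLM1, a Golgi membrane protein, stood at 0.0119 in high MM replicate 2 and 0.183 in low MM replicate 1. PIP5K1A, a phosphoinositide kinase, stood at 0.0117 and 0.0518 in those 2 tables. These equal the values at the TPM1 and PPP1R2 cuts there, of a miR-4331-5p fragment shared among 1850 and 1750 positions, so they are not particular to PIP5K1A.

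Both low MM pigs listed 3 of the 10 named: YAE1 with miR-4331-5p (1.23 and 0.429), ANKRD13B, an ankyrin-repeat protein (0.0730 with miR-339-5p and 0.172 with miR-574-3p), and WDR33, a factor of mRNA 3′ end processing (0.145 and 0.0350). Both WDR33 values came from fragments shared among many positions. The first equalled the FKBP5 value of that table, and the second, with an unnamed small RNA, the FBXO40 value of that table. The same named miRNA at the same cut was listed in 2 Polish Large White tables and no other for 9 interactions. Among these were miR-7 with CAP2, an actin regulator of striated muscle, at position 13350407 on chromosome 7, with 10 and 19 windows in the low MM tables and a fragment abundance of 1 in each. Others were miR-493-5p with BOD1, a protein of chromosome biorientation, at 0.0152 and 0.00715 in the low MM tables, and miR-4331-5p with YAE1 and PIP5K1A. The CAP2 and BOD1 interactions were described after their values were seen.

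Targets absent from Polish Large White were led by TFCP2, a transcription factor in 6 of the 8 other tables (exact permutation p = 0.0606). It stood at 0.00158 to 0.0349 there and was paired with miR-4331-5p in 5, again as a fragment shared among many positions (median 1815). CCNYL1, a relative of cyclin Y, was named as a target in 5 others and in no Polish Large White table (exact permutation p = 0.0808), but its cut was not absent. The cut, paired with let-7f-5p at position 110911270 on chromosome 15, was also in Polish Large White low MM replicate 2, in rows that name no gene. It stood at 0.0231 there, with category 0 and a fragment abundance of 7, against 0.106 to 0.249 in the 5 others, with category 0 and fragment abundances of 6 to 48. By cut, 1 Polish Large White table and 5 others listed it (exact permutation p = 0.545). MYH2, the myosin heavy chain of fast oxidative fibres, was in 5 others at 0.00183 to 0.0355, with 4 different small RNAs (exact permutation p = 0.0808). IARS1, the cytosolic isoleucyl-tRNA synthetase, was in 4 others at 0.107 to 0.213. PTP4A2, a tyrosine phosphatase, was in all 4 Pietrain tables and in neither Polish Large White nor Hampshire, at 0.0146 to 0.0349 (exact permutation p = 0.208 for PTP4A2 and for IARS1). In 3 of these tables it was a miR-4331-5p fragment shared among 1401 to 1947 positions, with the same values as the PPP1R2 cut there. In Pietrain low MM replicate 1 it was paired with miR-376c-3p instead, at 0.0312.

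Interactions absent from Polish Large White and in at least 3 others numbered 10. Besides CYTB with miR-1343 and TFCP2, a miR-150 cut at position 128960294 on chromosome 1 was in 4 others, at 0.00429 to 0.0155. Its rows name CAPN3, the muscle calpain, in 2 of these tables, ZNF106 in 1 and no gene in the other. miR-195 with RACK1, a ribosomal scaffold, was in 3 others at 0.00178 to 0.0343. miR-376c-3p with AK1, the muscle adenylate kinase, was in 3 others at 0.0230 to 0.0464. DSP, a desmosomal linker, with miR-4331-5p was in 1 Polish Large White table and 7 others (exact permutation p = 0.0667). miR-542-3p with the overlapping ACTG1, gamma-actin, and TSPAN10 was in 1 Polish Large White table at 0.0180 and 6 others at 0.0294 to 0.148. miR-143-3p with COX1 was in 1 Polish Large White table at 0.0174 and 6 others at 0.0107 to 0.0382.

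By miRNA, 122 named miRNAs were listed and 87 of them in Polish Large White. All 4 Polish Large White tables listed 5 of these: miR-4331-5p, miR-769-5p, miR-499-5p, miR-206 and miR-155-5p. Another 12 were listed in Polish Large White only, and 3 were in none of its tables but in at least 4 others: miR-195, miR-127 and miR-376c-3p. miR-145-5p had 99 interactions in Polish Large White and 1 in the other breeds, but all 99 came from low MM replicate 1. There, 83 of them carried the same fragment abundance of 20 shared among 135 positions. The 99 interactions fell on 26 target genes, with equal numbers of rows on both strands (100 each). miR-432-5p showed the like in high MM replicate 1, with 43 interactions of fragment abundance 20, and in Hampshire high MM replicate 1, with 33. The share of interactions of miR-125, miR-143 and miR-145 was 7.93% ± 15.2 in Polish Large White and 0.599% ± 0.405 in the other breeds (exact permutation p = 0.287), and without low MM replicate 1 the highest Polish Large White table stood at 0.498%.

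Gene lists of muscle pathways were compared as the percent of a table's targets that belong to each list. None of the 18 lists with a listed member, and none of 8 miRNA lists, was called (exact permutation, Benjamini-Hochberg over each kind of list), and none had an unadjusted p under 0.05. Fast-fibre contractile genes made up 1.94% ± 0.367 of targets in Polish Large White and 2.55% ± 0.632 in the other breeds (p = 0.109, exact permutation, adjusted p = 0.966). Of 16 genes on this list, 6 were in Polish Large White and 9 in the other breeds. Of all targets, 543 were in the 4 Polish Large White tables and 1068 in the 8 others. TPM1 and ATP2A1 led it, followed by MYLK2, the kinase of fast myosin light chains, in 2 Polish Large White tables and 5 others. ATP2A1 stood at 0.0117 in high MM replicate 2 and 0.0635 and 0.0858 in the low MM tables, against 0.0127 to 0.165 in 6 others. These values mix 2 miR-4331-5p cuts on chromosome 3. The low MM values lay at position 18558732, listed in 1 other table at 0.165. The high MM value lay at position 18564131, listed in 6 others at 0.0127 to 0.0349 (exact permutation p = 0.222 for that listing). MYBPC2, the fast myosin-binding protein C, was in 1 Polish Large White table and 3 others.

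Of 13 mitochondrially encoded genes, 4 were in Polish Large White (ND5, COX3, CYTB and COX1) and 6 in the other breeds, beside 543 and 1068 of all targets. They made up 2.12% ± 0.698 of targets in Polish Large White and 2.28% ± 0.593 in the other breeds (exact permutation p = 0.661). As a share of interactions, mitochondrial cuts were 2.96%, 1.49%, 3.05% and 3.73% in the 4 Polish Large White tables, high MM first, and 2.03% to 7.73% (median 5.42%) in the others, so the groups overlapped. Of 26 nuclear genes of oxidative phosphorylation, 2 were in Polish Large White and 3 in the other breeds, beside the same counts of all targets. COX7A1, the muscle form of a complex IV subunit, was in both low MM Polish Large White tables, at 0.00987 and 0.0286, and in 5 others at 0.00660 to 0.0222. UQCRC2 of complex III was in 2 Polish Large White tables and 3 others.

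Glycolysis and glycogen genes made up 1.16% ± 0.961 in Polish Large White and 1.66% ± 0.989 in the other breeds (exact permutation p = 0.428). Of 22 genes, 5 were listed in Polish Large White and 11 in the other breeds, beside 543 and 1068 of all targets. ENO3 stood at 0.00615 and 0.00611 in the high MM tables, with miR-769-5p, and at 0.00211 in low MM replicate 1, with miR-95. In 5 others it ran from 0.000559 to 0.0599. PYGM, the muscle glycogen phosphorylase, and GPI, the glucose phosphate isomerase, were each in 1 Polish Large White table. Sarcomere and Z-disc genes made up 1.67% ± 1.04 in Polish Large White and 1.78% ± 0.772 in the other breeds (p = 0.830, exact permutation), with ACTA1, skeletal actin, in 2 Polish Large White tables and 7 others and DES, desmin, in 2 Polish Large White tables and 4 others. Of 11 slow-fibre genes, CSRP3, a muscle LIM protein, was the 1 listed in Polish Large White, in 1 table, and 3 were in the other breeds. The median difference in share of tables was -0.125 over the listed members of each of the fast-fibre, mitochondrial, oxidative and glycolytic lists, and also -0.125 over all 1416 listed targets.

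Markers were few, and a table of cut fragments is not a table of transcript levels. Of 11 muscle markers, 7 were listed in the series and 3 in Polish Large White (CA3, ACTA1 and NEB, nebulin), beside 1416 and 543 of all targets. Their share was 1.31% ± 0.701 in Polish Large White and 1.96% ± 0.886 in the other breeds (exact permutation p = 0.257). Of markers of other cells, COL3A1, a collagen of fibroblasts, was in both low MM Polish Large White tables and 2 Pietrain tables. ALAS2, from the erythroid markers, and B2M, from the immune markers, were in 1 Polish Large White table each. Both came from fragments shared among many positions, so neither listing points to a cell type. ALAS2 equalled RAB23 in low MM replicate 2 (0.0209, 287 positions). B2M equalled the TPM1 and PPP1R2 cuts in high MM replicate 2 (0.0117, 1850 positions). Of the adipocyte markers, LPL alone appeared, in 2 tables of the other breeds and in none of Polish Large White. Markers of endothelial and Schwann cells were missing from every table of the series, so their absence is not particular to Polish Large White.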

How the data were processed

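The authors deposited 1 PAREsnip table per library, 19855 rows in all. Per the file headers, each row gives a small RNA, a window, a cleavage position, a category (a score from 0 to 4), a fragment abundance (used as a score), a p-value and weighted and normalized weighted abundance (a signal whose scale is not stated). No deposited p-value exceeds 0.05. Base calling used CASAVA 1.8.2 and quality control FastQC, per the submitters' processing notes. Aligner and row filters are not stated. The weighted signal is the fragment abundance divided by its matching positions.

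A target or interaction counted as present when listed. Gene names are given per row, so a table can list a cut without its gene. Among the named targets this held for CCNYL1 and CAPN3. An interaction was a named miRNA with start plus cleavage position. Of the target IDs, 1198 matched the reference name table. Presence was tested over all 495 choices of 4 of 12 libraries (scipy 1.17.1), for features in 2 to 10 tables. Abundance, the largest normalized value per gene and table, was tested with limma 3.58.1 (R 4.3.3) on log2 values with unlisted values missing, for targets in at least 10 tables and 3 of Polish Large White. P-values were adjusted by Benjamini-Hochberg. Both tests were checked on simulated data with completely split targets or large shifts, and with values missing at random. The data here differ in these points, so that check does not show how the tests perform on them. Date-like weighted values (10) were set missing.

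Targets named were those in all 4 Polish Large White tables, up to 10 each in 3 or more and at most 2 others, in 2 and no other, and in none and at least 4 others, and up to 4 per gene list. Other members are described by their counts, and some were chosen after their values were seen. The members and lists were chosen with earlier results of these data known. Alternatives changed 1 choice at a time: single libraries left out, 1 breed as reference, MM or replicate strata, categories, p, matching positions, mitochondrial rows and abundance scale.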

Additional observations from a re-analysis of the deposited data

Results flagged for a closer look

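In Polish Large White low MM replicate 1, miR-125, miR-143 and miR-145 made up 30.8% of interactions, against 0% to 0.498% in the other 3 Polish Large White tables, far from its group. In Hampshire high MM replicate 2, fast-fibre contractile genes made up 1.14% of targets, lower than the other 7 tables of other breeds. Stress and chaperone genes made up 2.31% in Hampshire low MM replicate 1, and muscle markers 4.04% in Hampshire high MM replicate 1, each higher than the others. The log2 abundance of TPM1 was 0.74 in Hampshire high MM replicate 2, far above the other 7. In all, 56 groups of libraries were looked at and 5 held a value that far out, while chance alone gives about 5% of groups.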

How the results depend on the processing

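Of 288 alternative values of the designed results 273 kept their direction and their side of the threshold, as did 750 of 779 of single targets and interactions. The counts of called targets and interactions were 0 in all 28 alternatives of each. Differences are Polish Large White minus the other breeds. With categories 0 to 2 only, target genes per table became 8.38, and the difference in interactions per table became 34.1. With at most 70 matching positions, chosen after seeing the data, the share of targets in no other table became -1.34. With single libraries left out, interactions per table ran from -61.4 to 13.8, turning positive without Hampshire high MM replicate 2 and without Polish Large White high MM replicate 1 (2.92). The share of categories 0 and 1 ran from -3.54 to 0.29 (0.285 without Polish Large White high MM replicate 2). The cause was not tested.

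The count of recurrent targets called by limma was 0 with categories 0 to 2 only, a deposited p of 0.02 or less, raw or weighted abundance, or a pseudocount of 1. It was also 0 without mitochondrial rows or with genes in all 12 tables alone. The first 2 of these settings and the last 2 leave CYTB untested. With single libraries left out it was 0 to 1. CYTB was at log2 -3.82 (adjusted p = 0.0936) by weighted abundance and -0.29 (adjusted p = 0.509) with a pseudocount of 1, all by limma, over a range of adjusted p from 0.00159 to 0.509. Uncalled log2 differences near 0 changed sign. The abundance of CA3 was at -0.26 and the abundance of COX3 at -0.19 against Hampshire alone, and the abundance of PPP1R2 at -0.34 against Pietrain alone. CA3 was at -0.36 with categories 0 to 2, -0.35 in the shallower normalization class, and -0.092 and -0.046 with pseudocounts of 0.01 and 1. PPP1R2 was at -0.0023 with a pseudocount of 1. On raw values the abundance of FKBP5 was at -0.17 and the abundance of TPM1 at 0.54. With single libraries left out CA3 ran from -0.36 to 0.44, COX3 from -0.39 to 0.55 and PPP1R2 from -0.33 to 0.39. At most 10 matching positions left no recurrent gene to test.

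Replicate numbers did not pair the samples, since the 15 correlations between groups ran from -0.0834 to 0.181. With a replicate block the counts of called targets and interactions stayed at 0 and that of recurrent targets at 1 (CYTB log2 -3.62, limma adjusted p = 0.0250). Read totals are not known, so a target missing from a table may be below what that library could list.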
